A study of Mus musculus with 6 samples.

Results

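The genes described here are 41 components of the NF-kB pathway and of Toll-like and TNF receptor signalling, read from RNA-seq libraries of 4T1, a mammary tumour line of mouse origin. They comprise the NF-kB subunits, the IkB proteins, the activating kinases, receptors, adaptors, feedback inhibitors and the C/EBP partners Cebpb and Cebpd, and no secreted cytokine is among them. The members were fixed by symbol, and all 41 were found among the 23644 Ensembl gene rows of the deposited table. The study compared 3 libraries of control 4T1 cells, labelled wild type, with 3 libraries of 4T1 cells in which Carmil3, a regulator of actin capping protein, had been knocked out. Per the labels' protocols all cells were grown in the same serum-containing medium, no stimulus was named, and the knockout cells were derived as clones of single cells. The method of knockout, the number of clones, which clone gave which library, and whether cultures were separate within a group are not in the labels. Each p-value thus reflects the spread between libraries, possibly technical, and a difference between control and knockout cannot be told apart from a difference between the parental cells and a clone.

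NF-kB is a family of dimeric transcription factors held inactive in the cytoplasm by IkB proteins. Receptors for TNF, interleukins and microbial products activate the IkB kinase complex, which marks IkB proteins for destruction and so frees the dimers to enter the nucleus. Among the genes that NF-kB then switches on are its own inhibitors, so that levels of IkB and other feedback transcripts are commonly used as readouts of the pathway. A separate group of nuclear IkB proteins binds NF-kB dimers on DNA and selects which target genes respond, and C/EBP factors act with them at many inflammatory genes.

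Values are FPKM, a level scaled to exon length and to sequencing depth. Depth recovered from the spacing of the values was between 17779131 and 19046816 reads per library, and the value of a member in a library rested on between 21 and 5857 recovered reads. Changes are differences of log2(FPKM + 1), knockout minus control, tested with limma over 11171 genes, and a gene was called at a Benjamini-Hochberg adjusted p under 0.05. Carmil3 was listed at 0.0360, 0.0246 and 0.0117 FPKM in the control libraries and at 0, 0.0118 and 0.0241 FPKM in the knockout libraries, too low in both groups to check the labels. Knockout replicate 3 stood apart from the other knockout libraries on the second principal component (-15.55 against 6.73 and 9.56). Of 12 listed leukocyte markers 10 had a row, of which 9 stayed under 1 FPKM in every library, and these 10 summed to between 3.56 and 4.22 FPKM in control and between 3.08 and 4.03 FPKM in knockout libraries, most of it Cd68 (between 2.51 and 3.40 FPKM), with none of the 10 at 0 in every library. The defining leukocyte gene Ptprc was listed at 0.00614 FPKM or less in all 6 libraries. The 7 epithelial markers with a row, of 8 listed, summed to between 1013 and 1107 FPKM in control and between 428 and 473 FPKM in knockout libraries. All 7 were lower in every knockout library than in any control library, though Krt8 and Krt18 were present throughout. Epcam fell from between 19.6 and 19.7 FPKM to 0.132 FPKM or less. Krt7 fell from between 26.1 and 30.5 FPKM to 0.195 FPKM or less. Cdh1 fell from between 12.2 and 12.7 FPKM to between 0.723 and 0.803 FPKM. Of 6 listed fibroblast markers 4 had a row. Pdgfra was listed between 9.96 and 10.2 FPKM in control and between 17.4 and 17.9 FPKM in knockout libraries, Col1a1 lay the other way, between 1.36 and 1.74 FPKM in control and between 0.252 and 0.296 FPKM in knockout libraries, and Col1a2 and Dcn stayed under 1 FPKM. The 4 endothelial markers with a row, of 5 listed, summed to 0.0682 FPKM or less in every library. The part of these markers in the changes described here was not tested, and in bulk RNA fewer cells of a type and less RNA per cell cannot be told apart.

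Among the 41 members, those that rose most in knockout cells were inhibitors and regulators of the pathway rather than NF-kB subunits or the machinery upstream of them. Nfkbiz rose 4.62-fold, Bcl3 4.01-fold, Zc3h12a 3.50-fold and Nfkbia 2.92-fold, and the C/EBP gene Cebpd rose 3.71-fold from a low level. Of the 41 members 15 were higher (36.6%) and 8 lower (19.5%), against 16.9% higher and 18.7% lower among all genes tested, of which 35.6% were called in either direction. Log2 changes of 0.5 or more were seen in 8 of the higher members, where 3.71% of all genes were that much higher, and in 1 of the lower members, Cd14, where 4.95% of all genes were that much lower. The median log2 change was 0.11 over the members and -0.01 over all genes tested. Control and knockout values were fully separated for 32 members, against 50.5% of all genes tested. Nfkbid, Cebpd and Map3k8 passed the filter on low values only through the knockout libraries; without them 13 members of 38 were higher and 8 lower, 6 of the 38 being higher by a log2 change of 0.5 or more, and with no filter 15 of 41 were higher and 7 lower. The count of lower members was 3 without control replicate 1, and 5 without control replicate 3 or without knockout replicate 1. It was 4 when the median change of its chromosomal neighbours was subtracted from each gene. The count of higher members stayed between 13 and 15 in these settings. Tested against a 1.5-fold change of FPKM + 1, 4 members were higher (Nfkbiz, Bcl3, Nfkbia and Zc3h12a) and 0 lower. That scale understates the changes of low genes such as Cebpd, which rose 3.71-fold in FPKM and was not called by this test.

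**Figure D1:**
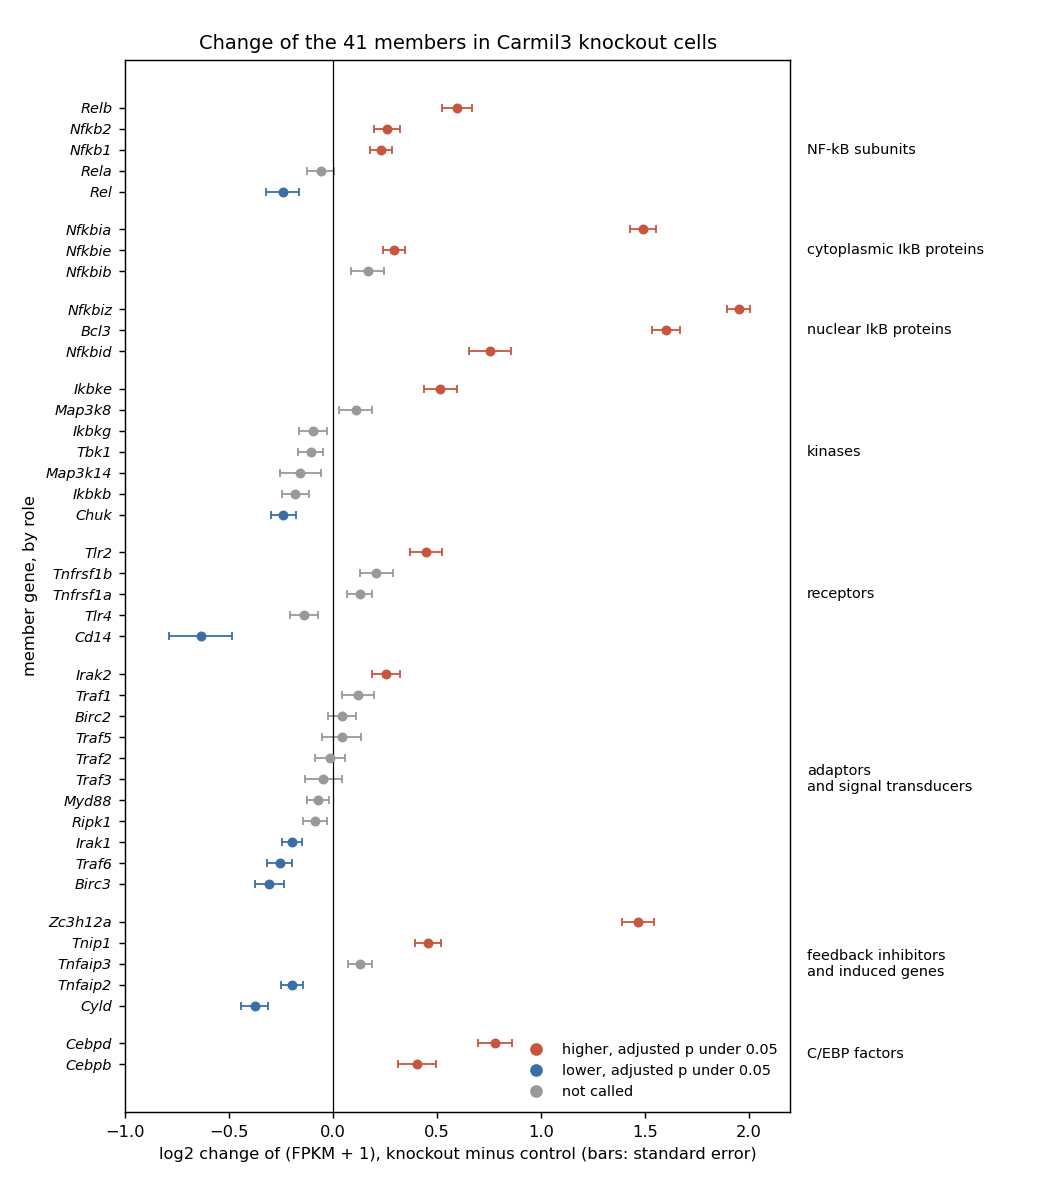
Log2 change of (FPKM + 1), knockout minus control, of the 41 members by role, with standard errors over 3 against 3 libraries; red and blue points were called higher and lower, grey points were not called. The 4 changes furthest to the right are Nfkbiz, Bcl3, Nfkbia and Zc3h12a, from 1.47 to 1.95, and Cd14 lies furthest to the left at -0.64.

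Promoter sequence was examined because many of these genes are known NF-kB targets themselves. RefSeq promoters (GRCm38.p6), covering 250 bases before to 50 bases after an annotated start site, were found for 33 of the 41 members; Nfkb1, Relb, Nfkbiz, Ikbkb, Map3k8, Tlr4, Cd14 and Cebpd were not analysed here for promoter sequence. The NF-kB consensus was searched on both strands, and overlapping matches were kept. It matched in 11 of these 33 genes (33.3%), against 5.14% of all 27025 genes with such a promoter. A match describes letters only, and occupancy was not measured in these cells. The stretches below are shown because they hold the matches of the 11 members, subunit, inhibitor, adaptor and receptor genes, whose levels are compared afterwards, with matches in capitals, 5′ to 3′ on the strand of the gene. For Nfkbia and Tnfaip3 the 250 bases before the start site are given; for the other genes a window around matches is given. A further match of Tlr2, 8 bases before its start site, and those of other annotated Nfkb2 promoters lie outside the windows. Positions are Nfkbia chr12:55492648-55492897 (minus strand), Bcl3 chr7:19822731-19822773 (minus strand), Nfkbid chr7:30422160-30422254 (plus strand), Nfkbie chr17:45555574-45555623 (plus strand), Tnip1 chr11:54962967-54963018 (minus strand), Tlr2 chr3:83841751-83841801 (minus strand), Nfkb2 chr19:46304678-46304755 (plus strand), Tnfaip3 chr10:19015411-19015660 (minus strand), Traf3 chr12:111166340-111166389 (plus strand), Rel chr11:23771031-23771081 (minus strand) and Cyld chr8:88696853-88696902 (plus strand).
Nfkbia: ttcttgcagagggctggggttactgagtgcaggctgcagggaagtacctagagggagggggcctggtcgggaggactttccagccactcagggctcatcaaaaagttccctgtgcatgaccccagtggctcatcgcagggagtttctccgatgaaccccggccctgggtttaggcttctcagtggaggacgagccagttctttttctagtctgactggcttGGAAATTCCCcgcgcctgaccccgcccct
Bcl3: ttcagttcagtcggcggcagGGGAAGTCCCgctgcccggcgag
Nfkbid: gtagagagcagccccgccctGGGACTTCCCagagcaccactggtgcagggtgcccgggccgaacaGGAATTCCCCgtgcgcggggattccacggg
Nfkbie: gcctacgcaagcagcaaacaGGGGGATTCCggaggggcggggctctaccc
Tnip1: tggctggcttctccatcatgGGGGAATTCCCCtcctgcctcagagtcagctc
Tlr2: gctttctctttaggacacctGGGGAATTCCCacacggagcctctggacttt
Nfkb2: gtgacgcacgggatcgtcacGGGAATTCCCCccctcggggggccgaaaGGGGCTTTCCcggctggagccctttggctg
Tnfaip3: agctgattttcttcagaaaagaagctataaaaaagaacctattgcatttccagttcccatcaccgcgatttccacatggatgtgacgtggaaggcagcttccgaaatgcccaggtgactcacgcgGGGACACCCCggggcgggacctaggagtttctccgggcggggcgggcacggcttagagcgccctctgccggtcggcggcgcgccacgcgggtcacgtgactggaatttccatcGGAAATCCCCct
Traf3: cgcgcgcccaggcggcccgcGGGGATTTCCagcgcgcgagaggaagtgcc
Rel: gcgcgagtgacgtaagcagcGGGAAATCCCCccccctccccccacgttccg
Cyld: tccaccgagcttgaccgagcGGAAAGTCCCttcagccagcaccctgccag

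Of the 11 members with a match, 7 were higher in knockout cells (Nfkbia, Bcl3, Nfkbid, Nfkbie, Tnip1, Tlr2 and Nfkb2), 2 were lower (Rel and Cyld) and 2 were not called (Tnfaip3 and Traf3). Among all genes tested 16.9% were higher and 18.7% lower. Nfkbid is counted here although it passed the filter on low values only through the knockout libraries. The log2 changes of the 11 members ran from -0.38 to 1.60 with a median of 0.30. Of the 22 members with a promoter entry and no match, 4 were higher and 5 lower, with log2 changes from -0.31 to 1.47 and a median of -0.04. Those 9 calls among 22 genes are near the share over all genes tested (16.9% higher and 18.7% lower). The largest rise among those 22 was that of Zc3h12a, whose promoter is shown for contrast with that of Nfkbia and holds no match in the 250 bases before its start site or in the 50 bases after it. The stretch printed is Zc3h12a chr4:125127882-125128131 (minus strand). A C/EBP motif (TTNNGNAA, both strands) was present in 10 of the 33 genes, where 44.1% of all genes with a promoter entry hold it. No test of these proportions was made.
Zc3h12a: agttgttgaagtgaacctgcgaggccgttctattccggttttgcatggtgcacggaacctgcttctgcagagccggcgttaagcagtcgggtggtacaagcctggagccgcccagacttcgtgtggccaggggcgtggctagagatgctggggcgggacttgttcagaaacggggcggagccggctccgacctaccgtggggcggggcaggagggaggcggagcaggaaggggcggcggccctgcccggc

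**Figure D2:**
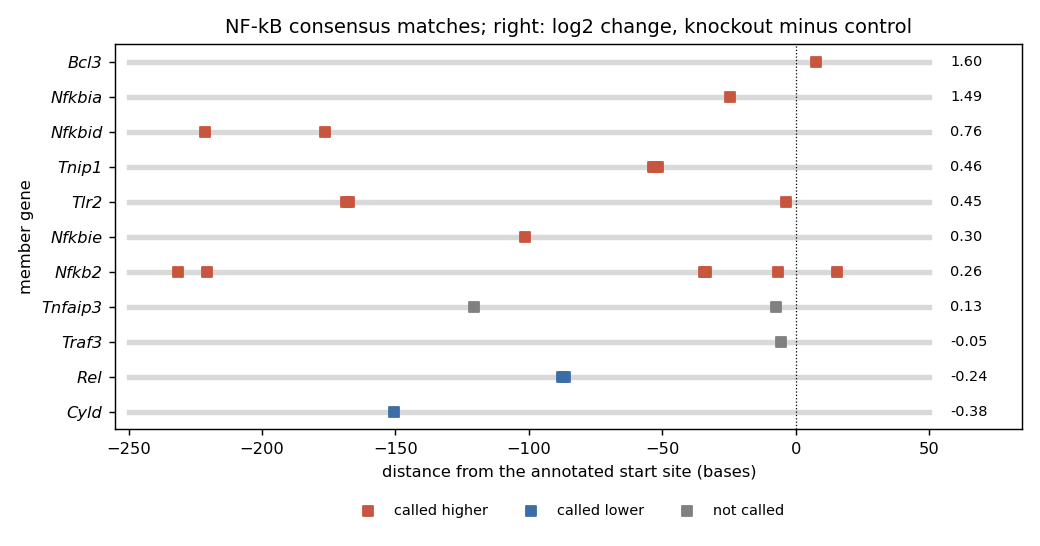
Positions of NF-kB consensus matches (squares, centred on the match) relative to the annotated start site in 11 members, one row per gene, with the matches of all its annotated promoters on one line; colours give the call and the number at the right the log2 change, knockout minus control. For Nfkb2 the matches that begin at 11 and at -225 bases are the same GGGACTTTCC, which lies in overlapping promoters and is drawn once for each. Genes with a match run from Bcl3 at 1.60 to Cyld at -0.38, so that matches occur in higher, lower and uncalled genes.

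Of the NF-kB subunit genes 3 rose, 1 fell and 1 was not called, each by a log2 change of 0.60 or less. Among all genes tested 16.9% were higher and 18.7% lower. Nfkb2, which encodes the precursor processed in the non-canonical pathway, was the most highly expressed subunit gene (chromosome 19, 46304320 to 46312385, plus strand, GRCm38). It measured 36.7, 34.8 and 37.9 FPKM in the control libraries and 46.0, 44.7 and 41.05 FPKM in the knockout libraries. All knockout values lay above all control values, and the gene rose 1.20-fold, a log2 change of 0.26 (standard error 0.0607, limma adjusted p = 0.0110). Rela, which encodes the main transactivating subunit of the canonical dimer, measured 25.5, 23.6 and 27.7 FPKM in the control libraries and 24.9, 24.2 and 24.3 FPKM in the knockout libraries. The groups overlapped, with a log2 change of -0.06 (standard error 0.0646, limma adjusted p = 0.512). Nfkb1, which encodes the other subunit of that dimer, measured 10.8, 11.0 and 11.3 FPKM in the control libraries and 13.7, 13.02 and 12.8 FPKM in the knockout libraries. Its groups did not overlap and it rose 1.19-fold, a log2 change of 0.23 (standard error 0.0543, limma adjusted p = 0.0112); the median change of its 40 chromosomal neighbours was 0.13, and the adjusted p of limma was 0.223 after centring on them and 0.0620 without control replicate 1.

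Relb, the partner of the processed Nfkb2 product in the non-canonical dimer, changed most among the subunit genes (chromosome 7, 19606217 to 19629438, minus strand). Its level was 3.23, 3.05 and 3.74 FPKM in the control libraries and 5.57, 5.49 and 5.59 FPKM in the knockout libraries. The 3 knockout values were nearly equal to each other and above every control value, a 1.66-fold rise and a log2 change of 0.60 (standard error 0.0728, limma adjusted p = 4.14e-04). Rel, which encodes c-Rel, a subunit best known from lymphoid cells, was the least expressed subunit gene and measured 2.80, 2.84 and 2.90 FPKM in the control libraries and 2.59, 2.13 and 2.07 FPKM in the knockout libraries. It fell in the full comparison, with a log2 change of -0.24 (standard error 0.0793, limma adjusted p = 0.0442), but the call was lost in 9 alternatives besides the 1.5-fold test, among them 5 of the 6 in which 1 library was left out (adjusted p by limma between 0.0905 and 0.128 in those 5), and after centring on neighbours (0.484). Summed over the 5 genes, subunit transcripts came to 79.3 ± 4.16 FPKM without and 89.3 ± 3.51 FPKM with the knockout (SD, n = 3). Within that sum the share of Rela was 32.2 ± 0.928% in control and 27.4 ± 0.787% in knockout cells, and that of Relb was 4.21 ± 0.232% and 6.22 ± 0.269% (SD, n = 3). Opposite-strand genes overlap 18.1% of the Nfkb2 exon length, and no source used here states whether reads were counted by strand.

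Nfkbia, which encodes IkB-alpha, the inhibitor that NF-kB resynthesises after each activation, carries the match shown above, which begins 29 bases before its start site (chromosome 12, 55489410 to 55492647, minus strand). Its level was 16.0, 16.2 and 17.7 FPKM in the control libraries and 51.1, 45.9 and 48.7 FPKM in the knockout libraries. The lowest knockout value was more than double any control value, and the gene rose from 16.6 ± 0.920 to 48.6 ± 2.63 FPKM (SD, n = 3), a log2 change of 1.49 (standard error 0.0621, limma adjusted p = 8.31e-07). In knockout cells it passed from rank 9 to rank 2 among the members by level, behind Tnfaip2. Per Rela transcript, on the FPKM scale, Nfkbia stood at 0.651 ± 0.0307 in control and 1.98 ± 0.0793 in knockout cells (SD, n = 3). Nfkbie, which encodes IkB-epsilon, another induced inhibitor, rose less, from 9.84 ± 0.395 to 12.3 ± 0.0426 FPKM (SD, n = 3), a log2 change of 0.30 (standard error 0.0539, limma adjusted p = 0.00346). Nfkbib, which encodes IkB-beta, an inhibitor whose gene is not known as a strong NF-kB target, measured 7.30 ± 0.313 FPKM in control cells against 8.35 ± 0.918 FPKM with the knockout (SD, n = 3) and was not called (limma adjusted p = 0.129).

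All 3 nuclear IkB genes rose, where 16.9% of all genes tested were called higher. Of the 3, Nfkbid passed the filter on low values only through the knockout libraries. Nfkbiz encodes IkB-zeta, a coactivator needed for a subset of secondary inflammatory genes, and had the largest change of any member (chromosome 16, 55811375 to 55838899, minus strand). It was measured at 3.76, 3.89 and 3.78 FPKM in the control libraries and 18.1, 16.96 and 17.8 FPKM in the knockout libraries. Within each group the values differed by little, and between the groups they differed 4.62-fold, a log2 change of 1.95 (standard error 0.0547, limma adjusted p = 7.81e-08). Bcl3, which encodes a nuclear IkB protein that binds homodimers of the processed subunits, measured 2.16, 1.84 and 2.18 FPKM in the control libraries and 8.44, 8.25 and 8.09 FPKM in the knockout libraries. Its groups were far apart, with a log2 change of 1.60 (standard error 0.0676, limma adjusted p = 8.74e-07) and a ratio of 4.01 (chromosome 7, 19808462 to 19822770, minus strand). Relb and Bcl3 lie close together on chromosome 7, where the median change of the neighbouring genes was 0.13 around Relb and 0.15 around Bcl3, and both were still called once it was subtracted (limma adjusted p = 0.00186 and 1.81e-06). Nfkbid, which encodes IkB-NS (chromosome 7, 30421732 to 30428746, plus strand), was low, at 0.891, 0.503 and 0.547 FPKM in the control libraries and 1.79, 1.80 and 1.72 FPKM in the knockout libraries. These values rest on 21 to 80 recovered reads, and control replicate 1 lay above the other control libraries, but no control value reached a knockout value. The ratio was 2.73, with a log2 change of 0.76 (standard error 0.101, limma adjusted p = 7.07e-04).

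Together the nuclear IkB genes summed to 6.51 ± 0.286 FPKM without and 27.6 ± 0.659 FPKM with the knockout, and the cytoplasmic IkB genes to 33.8 ± 0.926 and 69.2 ± 2.92 FPKM (SD, n = 3). Nuclear IkB genes thus made up 16.2 ± 0.710% of all IkB transcripts on the FPKM scale in control and 28.5 ± 0.485% in knockout cells (SD, n = 3). Neither sum overlapped between the groups, and the values of 50.5% of all genes tested do not overlap either.

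**Figure D3:**
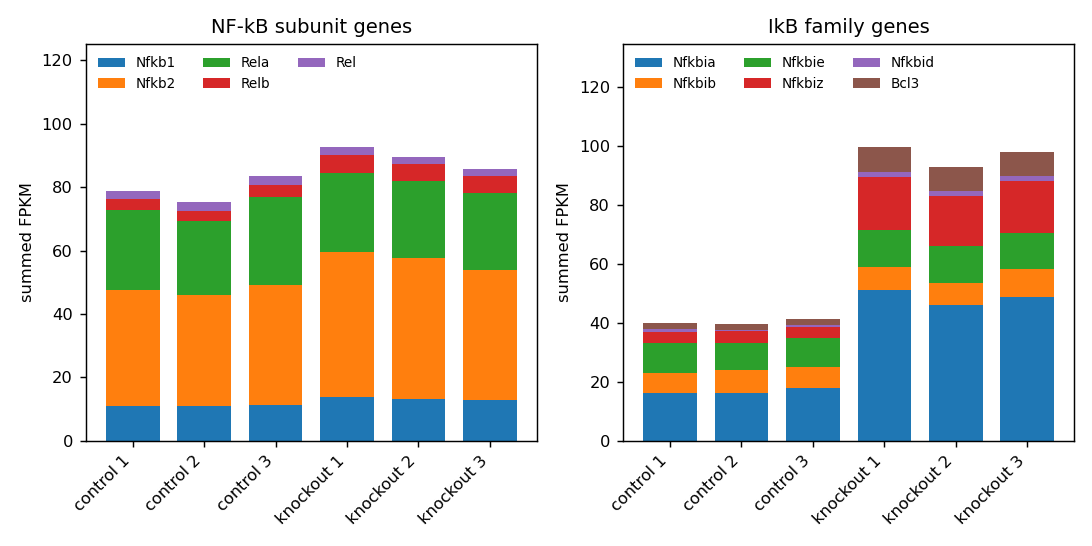
Stacked FPKM of the 5 NF-kB subunit genes (left) and of the 6 IkB family genes (right) in each of the 6 libraries. Both sums are higher in every knockout library than in any control library, where 50.5% of all genes tested have groups that do not overlap. The subunit sum lies between 75.3 and 92.7 FPKM over all 6, and the right-hand stacks rise mainly through Nfkbia, Nfkbiz and Bcl3.

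**Figure D4:**
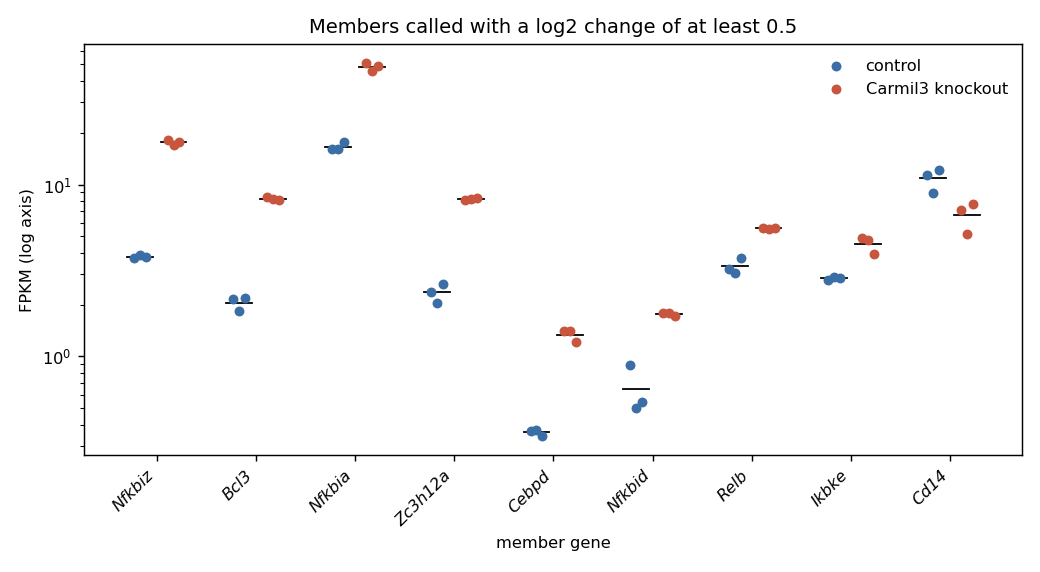
FPKM (log axis) in each library of the 9 members called with a log2 change of at least 0.5, ordered by that change; points are libraries and black lines group means. The control and knockout values do not overlap for any of the 9 genes, which were picked by their change in these same libraries. Values of 50.5% of all genes tested do not overlap either. Cd14 is the only gene shown that is lower in knockout cells.

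Of the 7 kinases that activate the pathway 1 was higher and 1 lower (14.3% each). These shares are near those of all genes tested (16.9% higher and 18.7% lower). Ikbke encodes an IkB kinase-related enzyme that is itself induced by inflammatory signals (chromosome 1, 131254343 to 131279606, minus strand), and measured 2.80, 2.90 and 2.84 FPKM in the control libraries and 4.88, 4.76 and 3.92 FPKM in the knockout libraries. Knockout replicate 3 was the lowest of its group and still above all control values. The gene rose 1.59-fold, a log2 change of 0.52 (standard error 0.0805, limma adjusted p = 0.00154). Its constitutive relative Tbk1 measured 17.6 ± 1.10 FPKM in control cells against 16.2 ± 0.462 FPKM with the knockout (SD, n = 3) and was not called (limma adjusted p = 0.205). Of the canonical complex, Chuk (the alpha kinase) fell from 16.98 ± 1.09 to 14.2 ± 0.363 FPKM (SD, n = 3), a log2 change of -0.24 (standard error 0.0609, limma adjusted p = 0.0168), which did not pass without control replicate 1 (adjusted p of limma 0.0700), control replicate 2 (0.0502) or knockout replicate 1 (0.0554). Ikbkb, the beta kinase gene, had means of 3.73 and 3.17 FPKM in control and knockout cells and missed the threshold (limma adjusted p = 0.0581). Its groups did not overlap, and it was called lower by limma-voom on recovered reads (0.0140) and by limma with eBayes without options (0.0427). Ikbkg, the gene of the regulatory subunit NEMO, had means of 6.86 and 6.36 FPKM with overlapping groups. Map3k14, which encodes the NF-kB-inducing kinase of the non-canonical pathway, had means of 5.95 and 5.24 FPKM (limma adjusted p = 0.254). The kinase gene Map3k8 was near the filter, at 0.962 and 1.12 FPKM (limma adjusted p = 0.308), and was called only after centring on its neighbours (0.0213).

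Of the 5 receptor genes 1 was higher and 1 lower (20% each). These shares are near those of all genes tested (16.9% higher and 18.7% lower). Cd14, which encodes a co-receptor that hands lipopolysaccharide to Toll-like receptors, measured 11.4, 8.98 and 12.2 FPKM in the control libraries and 7.11, 5.16 and 7.68 FPKM in the knockout libraries (chromosome 18, 36725067 to 36726798, minus strand). All knockout values were lower, but replicate 2 was the lowest of each group and its standard error was the largest of all members. It fell 1.63-fold, a log2 change of -0.64 (standard error 0.153, limma adjusted p = 0.0172), a call that did not hold without control replicate 1 (adjusted p of limma 0.0622) or control replicate 3 (0.0561). Tlr2, the receptor gene for bacterial lipoproteins (chromosome 3, 83836272 to 83841767, minus strand), had values of 3.65, 4.03 and 3.30 FPKM in the control libraries and 5.23, 5.13 and 5.71 FPKM in the knockout libraries. The groups did not overlap and it rose 1.46-fold, a log2 change of 0.45 (standard error 0.0769, limma adjusted p = 0.00253). Tlr4, the lipopolysaccharide receptor gene, measured 7.81 ± 0.215 FPKM in control cells against 7.03 ± 0.567 FPKM with the knockout (SD, n = 3) and was not called (limma adjusted p = 0.148), except as lower after centring on neighbours (0.0392). The TNF receptor genes were expressed at higher levels than these and were not called: Tnfrsf1a had means of 27.5 and 30.2 FPKM in control and knockout cells (limma adjusted p = 0.123). Tnfrsf1b had means of 16.8 and 19.6 FPKM (0.0721), and limma-voom on recovered reads called it higher (0.0451).

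Adaptors and signal transducers below the receptors numbered 11, of which 1 was higher, 3 were lower and 7 did not pass, near the 35.6% of all genes that were called, with log2 changes from -0.31 to 0.25. Birc3, which encodes a ubiquitin ligase of the TNF receptor complex and is a known NF-kB target, fell from 4.64 ± 0.401 to 3.55 ± 0.0552 FPKM (SD, n = 3). All 3 knockout values (3.61, 3.50 and 3.55 FPKM) were below the control values (4.47, 5.10 and 4.35 FPKM), with a log2 change of -0.31 (standard error 0.0697, limma adjusted p = 0.00995). Its neighbour and paralog Birc2 had 7.97, 8.50 and 7.36 FPKM in control and 7.94, 8.52 and 8.17 FPKM in knockout libraries, with overlapping groups (limma adjusted p = 0.633). The ratio of Birc2 to Birc3 was therefore 1.71 ± 0.0619 in control and 2.31 ± 0.118 in knockout cells (SD, n = 3). Traf6, the ubiquitin ligase gene used by Toll-like and interleukin receptors, fell from 6.53 ± 0.345 to 5.31 ± 0.0743 FPKM (SD, n = 3) (limma adjusted p = 0.0118), and Irak1, a kinase gene of the same route, fell from 32.9 ± 0.450 to 28.6 ± 0.924 FPKM (SD, n = 3) (0.0154). Irak2, its inducible relative, rose from 2.73 ± 0.134 to 3.45 ± 0.208 FPKM (SD, n = 3) (0.0201). These last 3 calls were lost after centring on neighbours, with adjusted p of limma at 0.149, 0.175 and 0.455. Irak1 and Irak2 were also lost without control replicate 1 (0.0735 and 0.0831) or knockout replicate 1 (0.0544 and 0.0631), and Irak2 without control replicate 2 (0.0562).

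The common adaptor gene Myd88 measured 11.97 ± 0.215 FPKM in control cells against 11.4 ± 0.459 FPKM with the knockout (SD, n = 3) and Ripk1, a kinase gene of the TNF receptor complex, 5.07 ± 0.183 FPKM in control cells against 4.72 ± 0.134 FPKM with the knockout (SD, n = 3), and neither was called (limma adjusted p = 0.338 and 0.292). The TRAF adaptor genes Traf2, Traf3 and Traf5 had log2 changes of -0.01, -0.05 and 0.04, all with overlapping groups. Traf2 had means of 6.86 and 6.76 FPKM and Traf5 of 2.62 and 2.72 FPKM in control and knockout cells. For Traf3, knockout replicate 3 (11.4 FPKM) lay below the other knockout libraries (14.3 and 14.7 FPKM) and below all controls (13.7, 13.8 and 14.1 FPKM). Traf1, an adaptor gene that NF-kB is known to induce, had means of 4.33 and 4.79 FPKM in control and knockout cells with overlapping groups (limma adjusted p = 0.251).

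Of the 5 feedback inhibitors and induced genes 2 were higher and 2 lower (40% each), and 1 was not called. The shares over all genes tested were 16.9% higher and 18.7% lower. After centring on neighbours the 2 higher genes, Zc3h12a and Tnip1, were still called. The 2 lower genes, Cyld and Tnfaip2, were not (adjusted p of limma 0.362 and 0.0737). Zc3h12a encodes a ribonuclease that degrades inflammatory messenger RNAs, including that of Nfkbiz (chromosome 4, 125118423 to 125127840, minus strand). It measured 2.37, 2.05 and 2.65 FPKM in the control libraries and 8.14, 8.21 and 8.38 FPKM in the knockout libraries. The knockout values were close together and all well above the controls, a 3.50-fold rise and a log2 change of 1.47 (standard error 0.0762, limma adjusted p = 2.88e-06). Tnip1, which encodes a ubiquitin-binding partner of the Tnfaip3 product (chromosome 11, 54910785 to 54962917, minus strand), had values of 15.7, 14.3 and 16.3 FPKM in the control libraries and 22.4, 21.5 and 20.8 FPKM in the knockout libraries. Its promoter holds the overlapping matches shown above, and it rose 1.40-fold without overlap of the groups, a log2 change of 0.46 (standard error 0.0623, limma adjusted p = 7.57e-04). Tnfaip3, the deubiquitinating enzyme gene that is among the best known NF-kB feedback genes, measured 6.07, 6.30 and 6.18 FPKM in the control libraries and 7.06, 6.99 and 6.57 FPKM in the knockout libraries. All knockout values lay above the controls but by 1.11-fold on average, which missed the threshold with a log2 change of 0.13 (standard error 0.0571, limma adjusted p = 0.104), and it was called higher only without knockout replicate 3 (0.0434).

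Cyld, which encodes another deubiquitinating enzyme of the pathway, fell from 8.70 ± 0.438 to 6.47 ± 0.385 FPKM (SD, n = 3), a log2 change of -0.38 (standard error 0.0650, limma adjusted p = 0.00265). The median change of its chromosomal neighbours was -0.29, and it was no longer called once that was subtracted (adjusted p of limma 0.362). Tnfaip2, a TNF-induced gene and the most highly expressed member in both groups, fell from 60.2 ± 2.89 to 52.3 ± 1.003 FPKM (SD, n = 3), a log2 change of -0.20 (standard error 0.0540, limma adjusted p = 0.0224). It did not pass without control replicate 1 (adjusted p of limma 0.0952), control replicate 3 (0.0697), knockout replicate 1 (0.0554) or knockout replicate 2 (0.0563), and after centring on neighbours (0.0737).

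Both C/EBP genes rose, where 16.9% of all genes tested were called higher, but Cebpd passed the filter on low values only through the knockout libraries. Cebpd, which encodes an acute-phase factor induced by cytokines (chromosome 16, 15887286 to 15891031, plus strand), was the least expressed member in control cells and measured 0.367, 0.375 and 0.342 FPKM in the control libraries and 1.40, 1.41 and 1.21 FPKM in the knockout libraries. Every knockout value was more than triple every control value, although these values rest on 24 to 100 recovered reads. The ratio was 3.71, with a log2 change of 0.78 (standard error 0.0811, limma adjusted p = 1.64e-04). Cebpb, a related factor gene that cooperates with NF-kB at inflammatory promoters (chromosome 2, 167688915 to 167690418, plus strand), had values of 6.91, 6.21 and 7.92 FPKM in the control libraries and 8.59, 10.1 and 10.0 FPKM in the knockout libraries. It rose 1.37-fold, a log2 change of 0.40 (standard error 0.0929, limma adjusted p = 0.0104). The ratio of Cebpb to Cebpd on the FPKM scale was 19.5 ± 3.35 in control and 7.21 ± 1.10 in knockout cells (SD, n = 3). Opposite-strand genes overlap 20.7% of the exon length of Cebpb and 15.0% of that of Cebpd, so that their levels may include reads of other genes.

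Other genes of these routes, a list of 66 Toll-like receptors, death receptors, adaptors, ubiquitin-system and related genes, were counted in the same way. A row was found for 65 of them and 52 passed the filter, of which 6 were higher (11.5%) and 14 lower (26.9%), against 16.9% and 18.7% of all genes tested, with a median log2 change of -0.06. Without Tlr1, Fas and Tnfrsf9, which passed only through the knockout libraries, 3 were higher and 14 lower of 49, and the count of lower genes was 8 without control replicate 1 and 9 with no filter on low values. Card10, which encodes a scaffold that links receptors to NF-kB in non-lymphoid cells, fell from 75.03, 67.9 and 75.2 FPKM in the control libraries to 36.7, 35.4 and 29.6 FPKM in the knockout libraries, a log2 change of -1.08 (standard error 0.0849, limma adjusted p = 2.99e-05). Its partner in that complex, the paracaspase gene Malt1, fell from 6.06 ± 0.331 to 3.82 ± 0.204 FPKM (SD, n = 3) (limma adjusted p = 3.82e-04), whereas the third component, Bcl10, had means of 13.5 and 14.4 FPKM and was not called (0.281). Tlr3, the receptor gene for double-stranded RNA, fell from 3.56 ± 0.299 to 1.69 ± 0.0762 FPKM (SD, n = 3) (limma adjusted p = 1.12e-04). Pdlim2, which encodes a ubiquitin ligase for the Rela product, fell from 31.8 ± 1.77 to 20.02 ± 1.18 FPKM (SD, n = 3) (1.26e-04), and the death receptor gene Tnfrsf10b fell from 21.4 ± 0.924 to 13.4 ± 0.412 FPKM (SD, n = 3) (5.90e-05). Tifa, an adaptor gene that binds TRAF proteins, rose from 1.85 ± 0.1005 to 3.27 ± 0.529 FPKM (SD, n = 3) (limma adjusted p = 0.00202). Median changes of chromosomal neighbours were -0.14 for Card10, -0.18 for Malt1, -0.20 for Tlr3, -0.23 for Pdlim2, -0.22 for Tnfrsf10b and 0.14 for Tifa. Each of these genes was still called after centring on neighbours (limma adjusted p from 7.79e-05 to 0.0105), with a smaller change. Bcl10 and the low-expressed receptor genes Tlr1 (0.316 and 1.49 FPKM in control and knockout cells), Fas (0.486 and 1.76 FPKM) and Tnfrsf9 (0.221 and 1.39 FPKM) are named after their values were seen; the last 3 had limma adjusted p of 5.84e-04, 7.86e-05 and 3.95e-05.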

How the data were processed

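The 6 libraries, 3 of control and 3 of Carmil3 knockout 4T1 cells, were made from Trizol-extracted RNA, per the labels' protocols. The authors deposited 1 table of values per Ensembl gene, taken here as FPKM because the values behave so. HTSeq 0.6.0, TopHat2 2.0.12, TopHat, Bowtie2, Bowtie and CASAVA were used with mm10, per the submitters' processing notes; which tool did what, the annotation release and the strand setting were not given in the sources used here. Identifiers were matched to GENCODE M21 (GRCm38), with symbols for 23587 of 23644 rows. FPKM times exon length fell on whole multiples of 1 step for between 91.9% and 92.2% of values up to 500 reads (within 0.02 of a read), and the depths and recovered reads, both approximate, follow from that step.

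The design named limma for a table of FPKM. Limma 3.58.1 under R 4.3.3, with the trend and robust options of eBayes, was run on log2(FPKM + 1) of the 11171 genes that reached 1 FPKM in 3 libraries or more, and p-values were Benjamini-Hochberg adjusted over all of them. This scale understates changes of low genes. Python 3.11.15 ran pandas 2.3.3, numpy 2.4.6 and matplotlib 3.10.9. The members, lists and alternatives were chosen with earlier results of these data known. Members called with a log2 change of at least 0.5, and Nfkb1, Nfkb2, Rela, Relb and Nfkbia, are described with the value of every library, and for some others these were added after seeing the values. Listed pathway genes are named if called with such a change and a mean of at least 2 FPKM. The alternatives were: other pseudocounts (0.1 and 5); a 5 FPKM filter or none; libraries rescaled by median of ratios or by quantiles; eBayes without options; limma's treat test for changes beyond 1.5-fold; the replicate number as a block; leaving out each library; subtracting the median change of 20 neighbours per side (centring); and limma-voom on recovered reads. The fit was tested on simulated data. Replicates were distinct libraries by a chi-square test of their reads (3.02 to 19.1 per degree of freedom), and all 6 were counted.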

Additional observations from a re-analysis of the deposited data

How the results depend on the processing

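Of the 23 called members, 14 kept their call in every alternative that gave a value, the 1.5-fold test aside, and Nfkbia, Nfkbiz, Bcl3 and Zc3h12a kept it there too. Tested against a 1.5-fold change of FPKM + 1, 4 members were higher and 0 lower, and 1 of the other pathway genes was higher and 1 lower. With 1 library left out, 13 to 16 members were higher and 3 to 7 lower, and of the other pathway genes 5 to 6 were higher and 8 to 12 lower. After centring on neighbours 4 members were lower. With a filter of 5 FPKM 2 other pathway genes were higher, fewer genes being tested, and with no filter 9 were lower. Uncalled members whose log2 change turned its sign were Ikbkg (0.0395), Traf3 (0.00353), Tnfrsf1a (-0.0526) and Birc2 (-0.0255) after centring. With 1 library left out, the log2 change ran from -0.0730 to 0.0510 for Traf2, from -0.111 to 0.0630 for Traf3, from -0.0461 to 0.114 for Traf5 and from -0.00360 to 0.0885 for Birc2. For these the cause was not tested. With the replicate number as a block 16 members were higher and 7 lower, Rel losing its call and Tnfrsf1b gaining one; 6 other pathway genes were higher and 12 lower. The deviations of same-numbered libraries correlated at -0.06, 0.15 and 0.10, not above 0.1 in every pair, so the numbers were not taken as pairs; 2 of the 3 control libraries correlated best with the knockout library of their own number. Depth limits Nfkbid, Cebpd and Map3k8 most.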
